A study of Homo sapiens with 8 samples.

Results

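The genes for the proteins of the cytosolic ribosome were followed through total RNA from HEK293 cells, a human embryonic kidney line, on exon arrays. Members were the gene symbols that begin with RPL or RPS and go on with a number, with or without a final A or X, together with RPLP0, RPLP1, RPLP2 and RPSA, read from probe sets that carry exactly 1 gene symbol. There were 76 such genes, 30 of the 40S and 46 of the 60S subunit, with 668 probe sets out of the 280649 that carry 1 symbol. Of these genes, 72 (29 and 43) had a gene value among the 16145 genes measured. The other 4, RPL21, RPL38 and RPS27 among them, had fewer than the 3 probe sets above the filter on low values that a gene value required.

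The 4 groups were a stable HEK293 derivative labelled shELL given EGF at 50 ng/mL for 1 h, shELL cells left unstimulated, control HEK293 cells given EGF in the same way, and control cells left unstimulated. Each group had 2 biological replicates, so 8 arrays were compared. The shELL cells were made to carry a stable knockdown of ELL, an elongation factor of RNA polymerase II, and the control cells are called wild type. The sources used here do not name the hairpin, the number of shELL clones or any control hairpin. All groups were grown in RPMI medium with serum.

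Ribosomal proteins line the decoding channel of the small subunit and support the peptidyl transferase centre, the exit tunnel and the factor-binding stalk of the large subunit. Their mRNAs are among the most abundant in dividing cells and mostly begin with a 5' terminal oligopyrimidine (TOP) tract, a C followed by a run of pyrimidines at the cap. Growth factor signalling through mTOR and the TOP-binding protein LARP1 is known to act on the translation and the stability of such mRNAs, which makes them a natural set to examine in cells given EGF. An array of total RNA reads mRNA level, not translation. In bulk RNA a smaller share of cells of 1 kind and less RNA per cell cannot be told apart.

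The start windows below show this shared element in a selection of members from different functional groups, which does not cover all members named in the results. Each line gives 15 bases to either side of an annotated RefSeq transcription start (build GRCh38.p14), 5' to 3' on the gene's strand, so that its second part is the first stretch of exon 1. Capitals mark a tract of at least 5 pyrimidines that begins with C within 3 bases of the annotated start. The 3 proteins of the factor-binding stalk come first, at chr12:120201097-120201126 (minus strand), chr15:69452803-69452832 (plus) and chr11:809952-809981 (plus). RPL10, RPL18, RPL11, RPL26, RPL39 and RPL41 of the large subunit follow, at chrX:154398362-154398391 (plus), chr19:48619164-48619193 (minus), chr1:23691791-23691820 (plus), chr17:8383179-8383208 (minus), chrX:119791616-119791645 (minus) and chr12:56116618-56116647 (plus). RPS6, RPS9 and RPSA of the small subunit are at chr9:19380222-19380251 (minus), chr19:54200843-54200872 (plus) and chr3:39406705-39406734 (plus). RPS4X, at chrX:72277234-72277263 (minus), is given as a window with no tract by this search. RPL10 and RPL11 also have other annotated starts, not printed here, in which this search found no tract.
RPLP0: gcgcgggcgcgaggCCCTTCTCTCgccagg
RPLP1: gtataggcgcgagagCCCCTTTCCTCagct
RPLP2: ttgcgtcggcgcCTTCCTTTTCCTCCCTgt
RPL10: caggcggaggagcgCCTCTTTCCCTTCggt
RPL18: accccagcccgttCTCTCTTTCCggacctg
RPL11: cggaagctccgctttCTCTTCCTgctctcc
RPL26: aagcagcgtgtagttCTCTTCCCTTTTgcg
RPL39: ttcttccgccagCTTCCCTCCTCTTCCTTT
RPL41: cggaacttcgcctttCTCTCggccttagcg
RPS6: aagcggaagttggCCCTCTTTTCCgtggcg
RPS9: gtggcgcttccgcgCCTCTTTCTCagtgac
RPSA: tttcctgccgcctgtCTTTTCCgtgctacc
RPS4X: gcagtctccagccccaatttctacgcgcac

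Of the 61 members with a start in the RefSeq table, 51 (83.6%) had at least 1 start with such a tract, against 4374 of all 27305 genes (16%). Counted by start, 52 of 76 member starts (68.4%) held it, against 4574 of 35116 starts (13%). The tracts of the members had a median of 9 bases and ran over 5 to 18 bases. Of these, 2 reached the last base of the window, that of RPL39 among them, so their lengths are lower limits. Other motifs were counted on both strands of the 300 bases from 250 before to 50 after each start. CCGGAAGT stood in 13.2% of member starts against 4.14% of all starts, and AAGATGGC in 7.89% against 2.89%. The GC box core GGGCGG was in 55.3% of member starts against 45% of all, TATAAA in 6.58% against 11.5%, and CACGTG in 5.26% against 7.26%. A palindrome of 10 bases that begins with TCTCGCG stood in 5 member starts (6.58%, against 0.424% of all starts), which belong to 4 genes. Counted by gene, CCGGAAGT stood in 9 of the 61 members and GGGCGG in 36. None of these 6 motifs contains another, but the reverse strand of CCGGAAGT holds a run of 5 pyrimidines that begins with C, which the tract search can also match at a start. A match describes the letters in the window and is no evidence of binding.

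The 8 arrays differed from each other in ways the groups do not explain, and these differences bear on every value below. The deposited log2 values were on different scales, with array 75th percentiles lowest in replicate 1 of shELL with EGF (2.17) and highest in replicate 2 of unstimulated shELL (5.16), so the arrays were quantile normalised before gene values were made. After that, replicate 1 of shELL with EGF correlated with the other arrays at a median r of 0.814 over all genes, against 0.905 to 0.949 for the other 7. ELL did not show the labelled knockdown in its gene value, at 3.86 and 2.65 in shELL with EGF, 2.93 and 2.63 in unstimulated shELL, 2.57 and 2.88 in control with EGF and 2.54 and 2.50 in unstimulated control. Averaged over both states it was 0.40 higher in shELL (exact permutation test of 4 arrays against 4, two-sided p = 0.171, the smallest possible being 0.0286). The control arrays averaged 2.62, at the background level. Other genes had lower values, but these depend on their own probes. Whether a knockdown of ELL could have shown at the background level was not tested. The line difference of ELL shrank to 0.11 when the first array of shELL with EGF was left out. The cells are therefore called by their label, shELL, and directions between the lines rest on that label. EGR1, an immediate-early gene of EGF signalling, separated the EGF arrays (7.14 and 7.91 in shELL, 7.69 and 7.57 in control) from the unstimulated ones (4.14 and 4.05 in shELL, 3.997 and 3.802 in control). Of 9 markers of HEK293 cells, 6 had mean gene values above the background level of 2.62, which is the 95th percentile of 42 olfactory receptor genes, and NEFM, PAX2 and PCDH17 did not. Of the fibroblast, blood, keratinocyte and endothelial markers 1 of 8, 0 of 5, 2 of 5 and 0 of 3 measured genes lay above it.

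Ribosomal protein genes gave a strong signal by most of their probe sets. Of the 668 probe sets, 563 (84.3%) had a mean over the 8 arrays above the probe-set background of 2.49, and the median was 6.22 on the log2 scale. The values within a gene were far apart: the range over the probe sets of a member had a median of 6.94 log2 units, and in 49 members it was over 6. A member had a median of 8 probe sets, and in 53 members the brightest was above 8. RPS4X, a protein of the 40S subunit encoded on the X chromosome, had the highest probe set at 12.00. Among the genes without a gene value, probe sets were at 4.03 (RPL21), at 0.88, 5.76 and 9.83 (RPL38) and at 1.66 and 2.87 (RPS27). Because a log2 value depends on the probes as well as on the mRNA, values of different genes are not set against each other as mRNA amounts.

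Ribosomal protein genes are known for their many processed pseudogenes, intronless copies scattered over the genome, and some probe sets assigned to the members lay away from the gene. Of the 668, 524 were on the chromosome where RefSeq places the gene and 144 were on another, in 34 members. The 524 had a median of 6.34 with 84.9% above background, and the 144 had a median of 5.63 with 81.9% above background. RPL7 had all its 7 probe sets at chr1:97144375-97145176 while the gene is on chromosome 8, RPL7A had its 3 at chr14:70352023-70352821 while the gene is on chromosome 9, and RPSA had its 5 at chrX:86958283-86959228 while the gene is on chromosome 3. These positions are as deposited, in a genome build that the sources used here do not name. In RPL10 the brightest probe set on chromosome 19 was at 10.82, against 10.85 for the brightest on the gene's own X chromosome. In RPS2, which lies at the mRNA entry of the small subunit, the corresponding values were 11.98 on another chromosome and 11.82 on its own. Signal of a copy and of the gene cannot be told apart by such probe sets, and the values of RPL7, RPL7A and RPSA are uncertain for this reason. A probe set on the gene's chromosome need not lie in the gene: 2 probe sets of RPS18 were far from the others on the same chromosome.

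**Figure D1:**
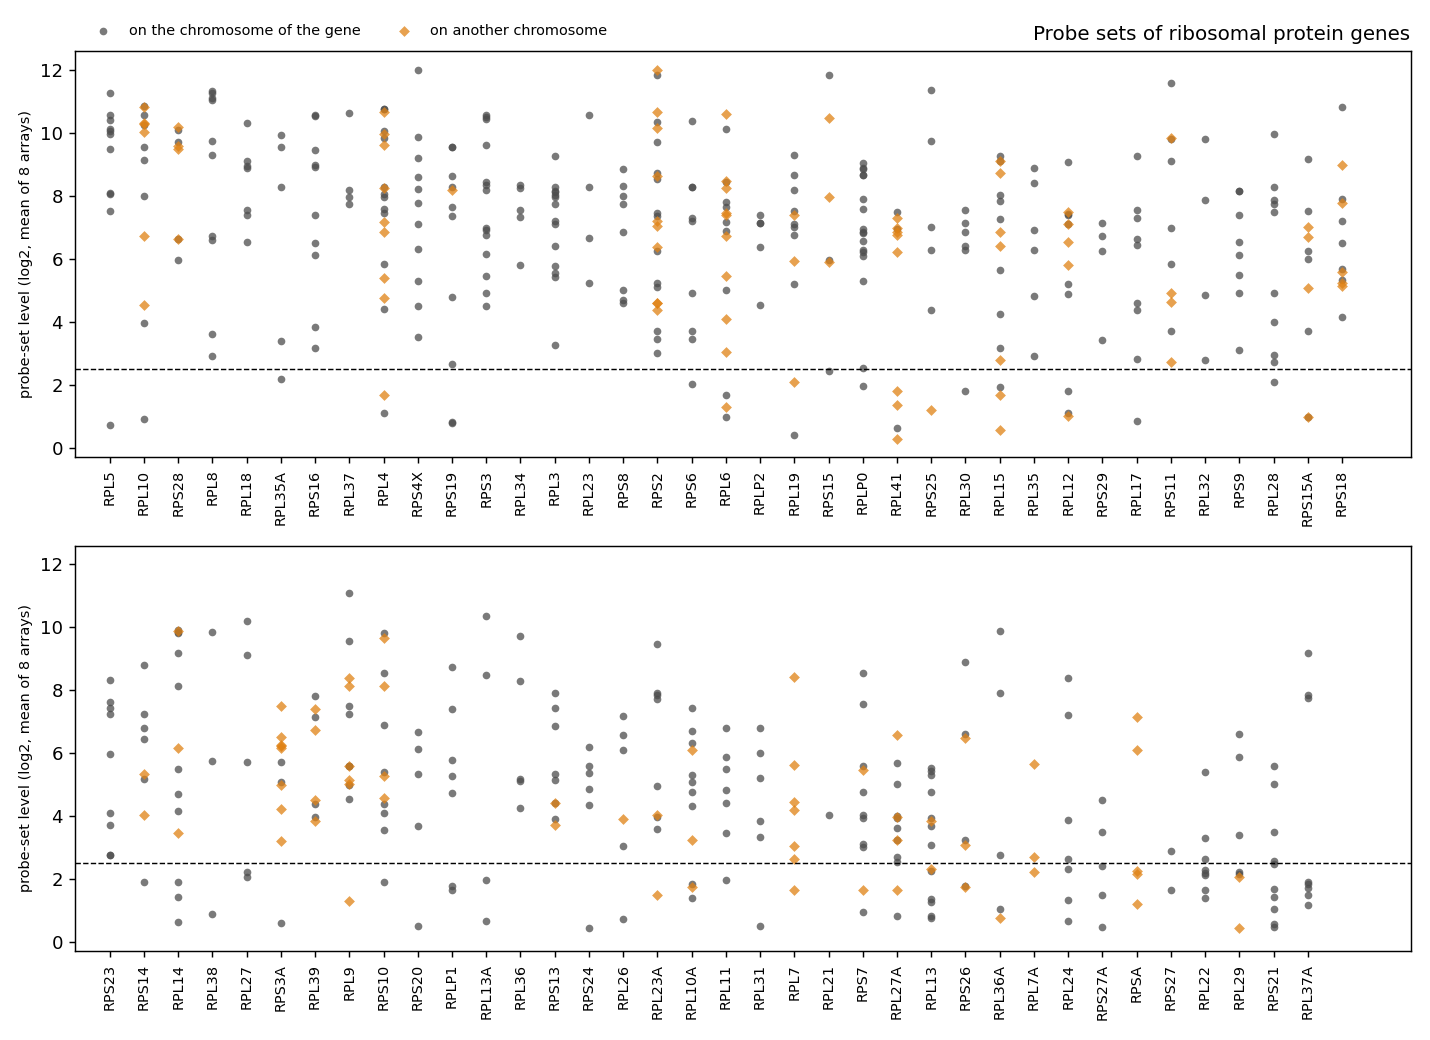
Mean log2 level over the 8 arrays (vertical axis) of every probe set of the ribosomal protein genes reported by name, with genes along the horizontal axis; circles are probe sets on the gene's chromosome and diamonds those on another, and the dashed line is the background of 2.49. Probe sets of 1 gene typically spread over several log2 units, and diamonds reach as high as circles in genes such as RPS2 and RPL10.

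On the level of genes, 68 of the 72 measured members lay above background. RPL37A (mean 1.69), RPL22 (2.14), RPSA (2.56) and RPS21 (2.58) were not above it. This holds for their summarised gene values only, since their brightest probe sets were at 9.19, 5.39, 7.14 and 5.59, against a probe-set background of 2.49. The median over the 72 members was 5.65 and 6.55 in shELL with EGF, 6.18 and 6.48 in unstimulated shELL, 6.70 and 6.50 in control with EGF and 6.59 and 6.48 in unstimulated control. Replicate 1 of shELL with EGF was thus below the other 7 arrays, which spanned 6.18 to 6.70, while the median of all genes in it, 2.80, was the highest of the 8 (2.52 to 2.73 in the others). In that array 44 of the 72 members had their lowest value, against 25.2% of all genes, and 2 had their highest, against 28.8% of all genes.

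**Figure D2:**
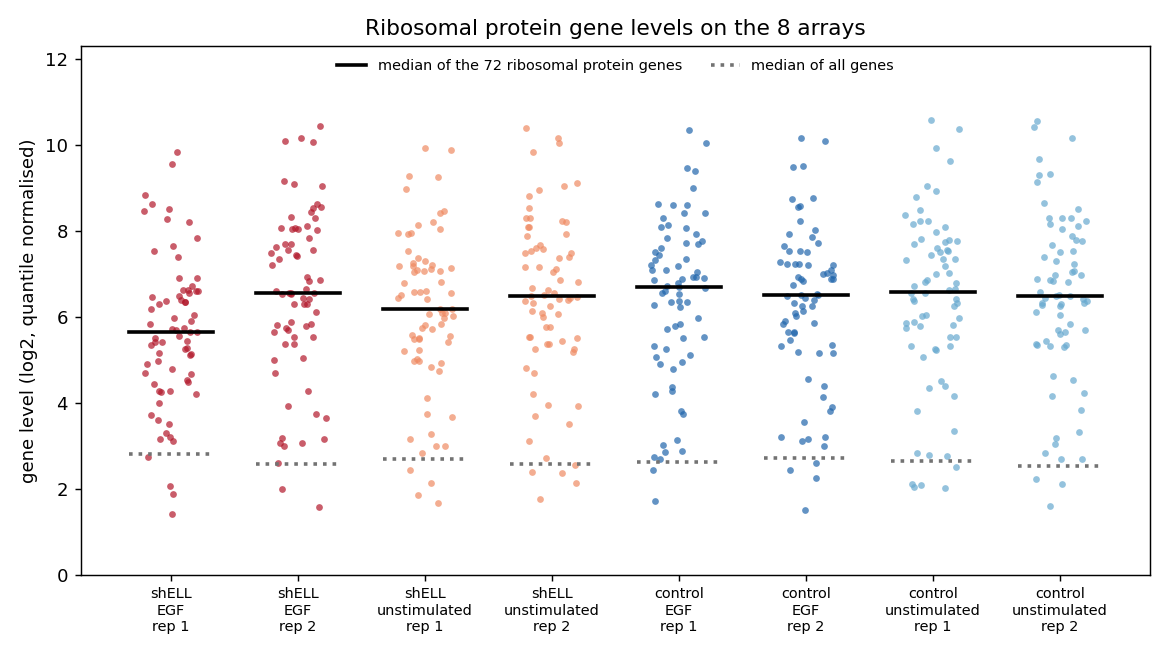
Gene level (log2 after quantile normalisation, vertical axis) of the 72 measured ribosomal protein genes on each of the 8 arrays (horizontal axis); points are genes, solid bars their median and dotted bars the median of all 16145 genes. The median of the members is 5.65 in replicate 1 of shELL with EGF and 6.18 to 6.70 in the other arrays.

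The 2 replicates of shELL with EGF were far apart for these genes. The absolute gap between replicates had a median of 0.83 over the members in shELL with EGF, 0.44 in unstimulated shELL, 0.23 in control with EGF and 0.26 in unstimulated control. For all genes the same medians were 0.59, 0.35, 0.31 and 0.28. In shELL with EGF 61 of 72 members were higher in replicate 2, with a median of 0.75 (all genes, -0.10), and 26 members (36.1%, against 25.5% of all genes) differed by more than 1 log2 unit. In the other groups the number of members with such a gap was 8 in unstimulated shELL (11.1%, against 9.11% of all genes), 2 in control with EGF (2.78%, against 5%) and 1 in unstimulated control (1.39%, against 3.07%). The median over both subunits followed the same course: 40S genes were at 5.72 and 6.55 in shELL with EGF and 6.41 to 6.71 in the other arrays, and 60S genes at 5.52 and 6.66 in shELL with EGF and 6.18 to 6.69 in the others.

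**Figure D3:**
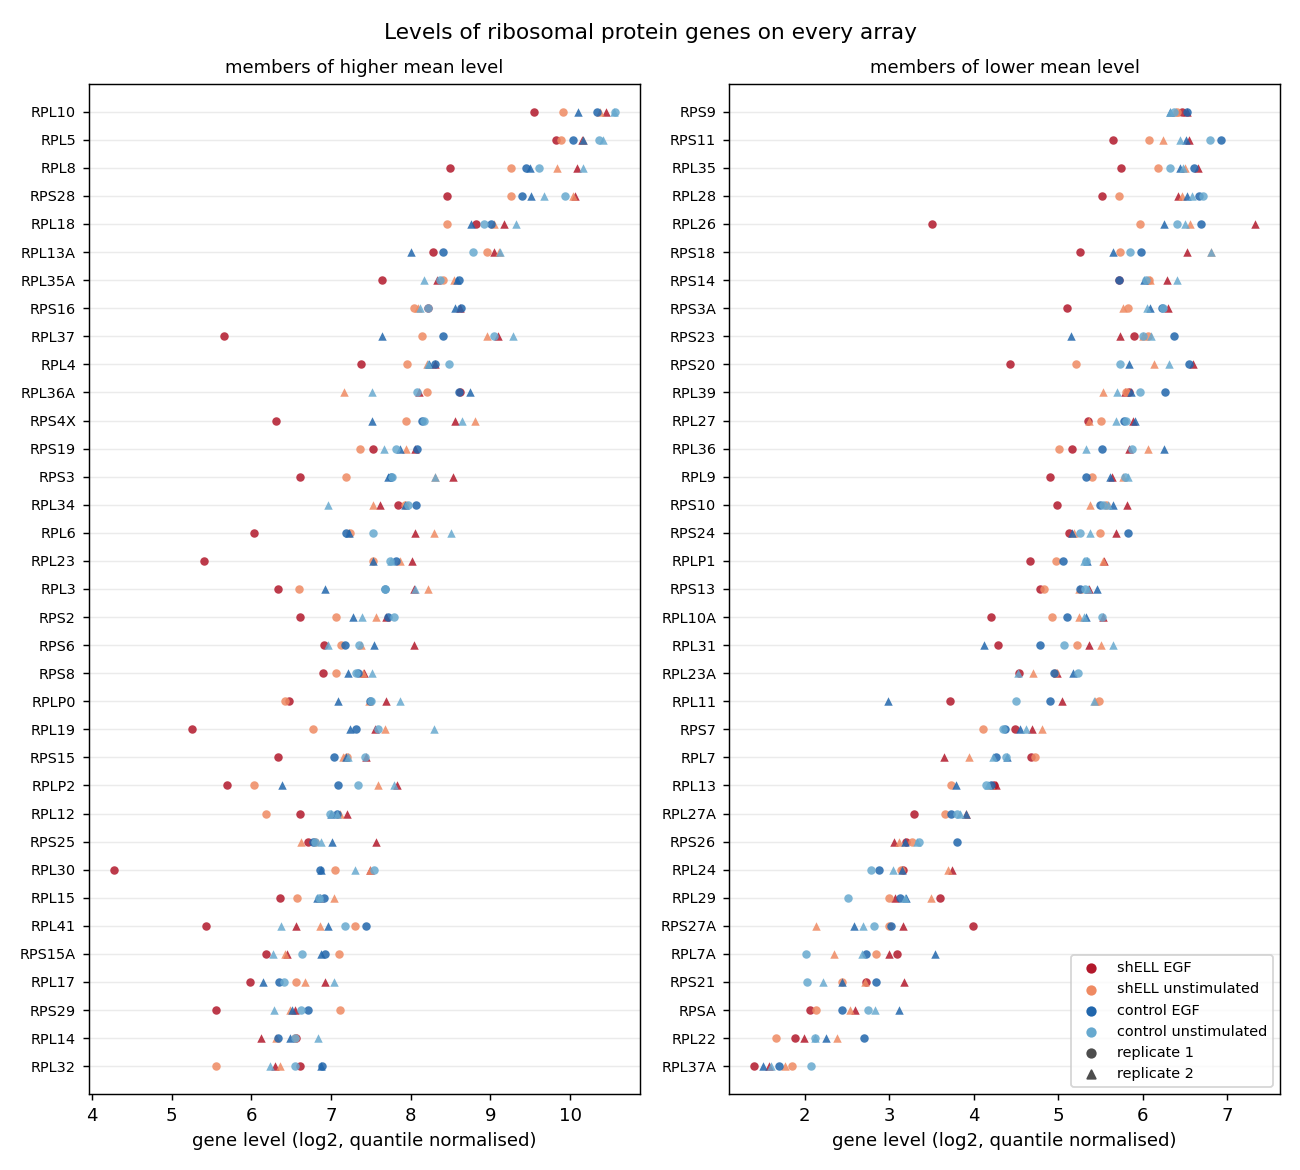
Gene level (log2, horizontal axis) of the measured ribosomal protein genes reported by name (rows, ordered by mean) on every array; colours give the group, circles replicate 1 and triangles replicate 2. Replicate 1 of shELL with EGF stands to the left of the other arrays in many rows, most clearly in RPL37, RPL26 and RPL30, while RPS9 lies within 6.32 to 6.52 on all 8 arrays.

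The stalk proteins, which recruit the elongation factors to the large subunit, illustrate how replicates and groups lay against each other. RPLP0, the stalk base, was at 6.47 and 7.69 in shELL with EGF, 6.43 and 7.48 in unstimulated shELL, 7.50 and 7.08 in control with EGF and 7.50 and 7.87 in unstimulated control. RPLP2, which forms the flexible arm with RPLP1, was at 5.69 and 7.83, 6.03 and 7.59, 7.09 and 6.38, and 7.34 and 7.79 in the same 4 groups. Both were low in replicate 1 of each shELL group. For RPLP0 the arrays of unstimulated shELL and of control with EGF lay below those of unstimulated control, and the other pairs of groups overlapped. RPLP1 varied less, at 4.66 and 5.54 in shELL with EGF, 4.97 and 5.53 in unstimulated shELL, 5.06 and 5.34 in control with EGF and 5.33 and 5.30 in unstimulated control.

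RPL5 and RPL11 carry the 5S rRNA into the large subunit and, when free of ribosomes, bind the p53 ligase MDM2. RPL5 was steady, at 9.83 and 10.15 in shELL with EGF, 9.88 and 10.16 in unstimulated shELL, 10.04 and 10.16 in control with EGF and 10.36 and 10.41 in unstimulated control. RPL11 was not, at 3.72 and 5.05, 5.48 and 5.44, 4.90 and 2.99, and 4.50 and 5.43. Its EGF arrays lay below the unstimulated ones within shELL, whereas in control they overlapped. RPL23, another large-subunit protein known to bind MDM2, was at 5.41 and 8.01 in shELL with EGF and within 7.52 to 7.87 in the other 6 arrays.

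Around the peptidyl transferase centre, RPL10, which is needed for the last steps of 60S maturation, was at 9.55 and 10.45 in shELL with EGF, 9.91 and 10.38 in unstimulated shELL, 10.33 and 10.10 in control with EGF and 10.57 and 10.55 in unstimulated control. RPL8, which holds the core of that centre, was at 8.50 and 10.09, 9.26 and 9.84, 9.45 and 9.49, and 9.61 and 10.16. RPL3, its neighbour, was at 6.34 and 8.04, 6.60 and 8.22, 7.68 and 6.93, and 7.68 and 8.05. In all 3 the lowest array was replicate 1 of shELL with EGF, and its partner was among the higher arrays.

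RPL37, RPL26 and RPL30 had the widest spread over the 8 arrays. RPL37, a zinc-binding protein of the large subunit, was at 5.65 and 9.09 in shELL with EGF, 8.14 and 8.95 in unstimulated shELL, 8.41 and 7.64 in control with EGF and 9.04 and 9.29 in unstimulated control, an SD of 1.20 over the 8 arrays. RPL26, at the tunnel exit, was at 3.51 and 7.33 in shELL with EGF and within 5.97 to 6.69 in the other 6 (SD 1.14). RPL30, also known to bind selenocysteine insertion elements, was at 4.28 and 7.48 in shELL with EGF and within 6.86 to 7.54 elsewhere (SD 1.08). In RPL26 the 2 arrays of shELL with EGF were the lowest and the highest of all 8. RPL39, which lines the tunnel, stayed within 5.53 to 6.26.

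RPL41, a very short protein that bridges both subunits, was at 5.43 and 6.56 in shELL with EGF, 7.30 and 6.86 in unstimulated shELL, 7.44 and 6.96 in control with EGF and 7.18 and 6.37 in unstimulated control. Its arrays of shELL with EGF lay below those of unstimulated shELL and of control with EGF without overlap. Of its 11 probe sets, 3 lie on the chromosome of the gene, 12, and 8 on chromosomes 7, 17 and 22, so that its value joins several places. With the probe sets on its own chromosome alone it had no gene value.

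In the small subunit, RPS6, the substrate of the S6 kinases downstream of growth factors, was at 6.91 and 8.04 in shELL with EGF, 7.13 and 7.38 in unstimulated shELL, 7.18 and 7.53 in control with EGF and 7.35 and 6.96 in unstimulated control. RPS3, at the mRNA entry and also known in DNA repair, was at 6.62 and 8.53, 7.19 and 8.31, 7.76 and 7.72, and 7.77 and 8.30. RPS4X was at 6.31 and 8.56, 7.94 and 8.81, 8.14 and 7.52, and 8.16 and 8.65. In these 3 genes the replicates of shELL with EGF lay more than 1 log2 unit apart, and in RPS6 and RPS3 they enclosed the other 6 arrays. RPS14 and RPS19, whose loss is known from the 5q- syndrome and from Diamond-Blackfan anaemia, were within 5.72 to 6.41 and 7.36 to 8.08. RPS9, at the mRNA entry, had the least spread of all members, with an SD of 0.08. RPS27A, made as a fusion with ubiquitin, was at 3.99 and 3.17 in shELL with EGF, 3.001 and 2.13 in unstimulated shELL, 3.03 and 2.59 in control with EGF and 2.83 and 2.69 in unstimulated control. RPSA, at 2.07 and 2.59, 2.14 and 2.54, 2.44 and 3.12, and 2.75 and 2.84, stayed close to background.

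**Figure D4:**
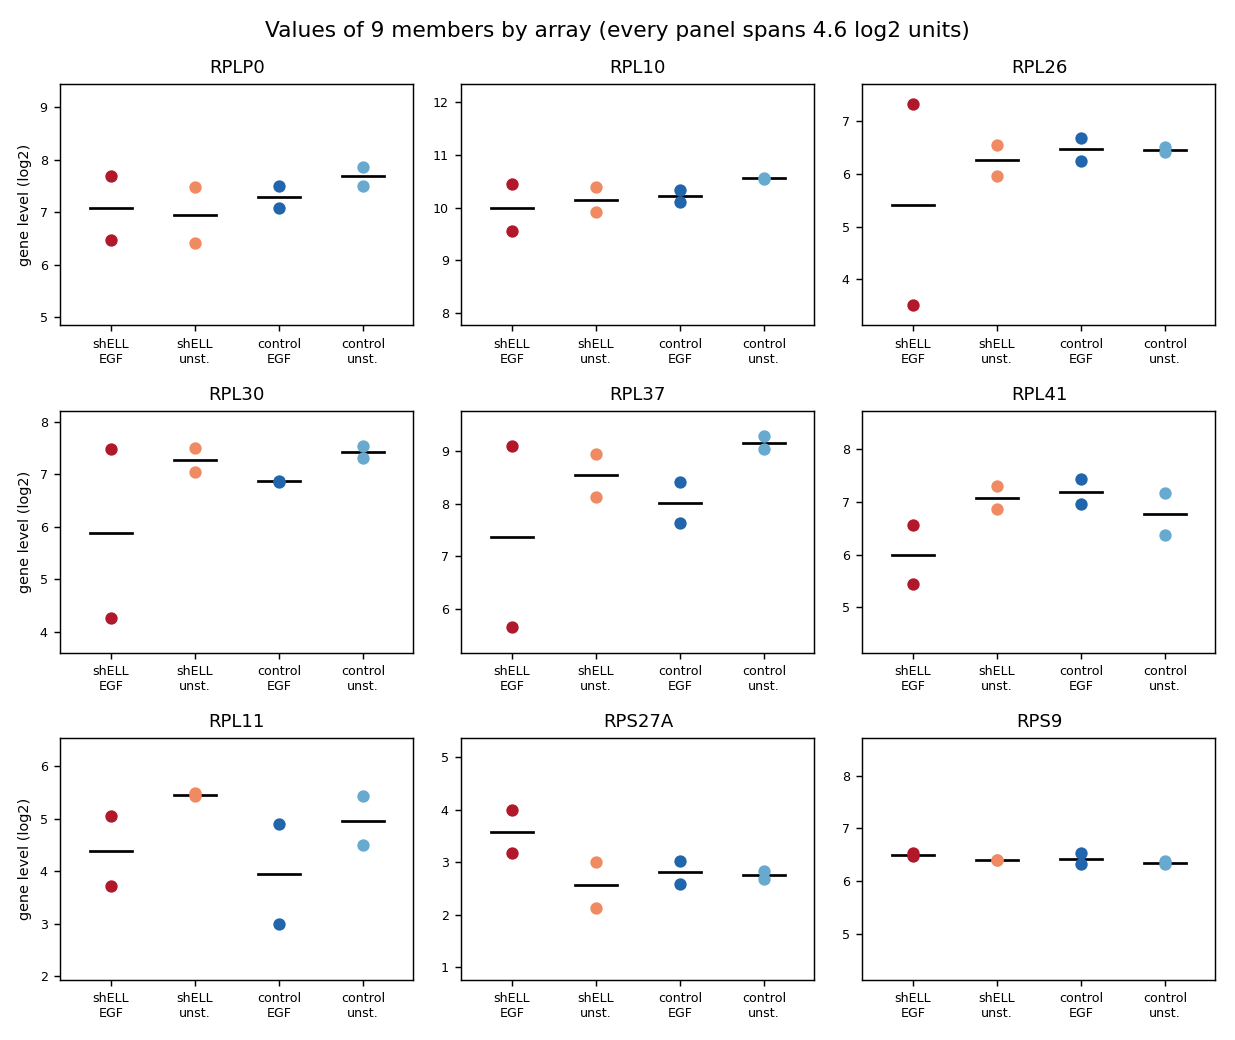
Gene level (log2, vertical axis, the same span in every panel) of 9 members in shELL with EGF, unstimulated shELL, control with EGF and unstimulated control; points are the 2 arrays of a group and bars their mean. The arrays of shELL with EGF are widest apart in RPL26, RPL30 and RPL37, whereas RPS9 hardly varies.

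The first comparison, like those after it, is given as log2 differences from a limma fit of the 4 group means to all genes, and it asked whether 1 h of EGF altered the ribosomal protein mRNAs of control cells. The median log2 difference over the members, EGF minus unstimulated, was -0.0092, against 0.070 for all genes. Its sign and size depended on the processing: it was 0.028 (all genes -0.044) on the values as deposited, 0.23 (all genes 0.15) after centring each array on its median, and -0.23 (all genes 0.035) with the mean of a gene's probe sets in place of median polish. No member of 72 passed limma with Benjamini-Hochberg adjustment at 0.05, where 0.00619% of all genes did. None had an unadjusted p under 0.05, which 2.69% of all genes had. The difference was negative in 37 members (51.4%, against 41.9% of all genes). The EGF arrays lay above the unstimulated ones without overlap in 9 members (12.5%, against 24.5% of all genes) and below them in 21 (29.2%, against 15.7%). The most negative differences were those of RPL37 (-1.14, 95% interval -3.17 to 0.89), RPL11 (-1.02), RPL31 (-0.91), a protein near the tunnel exit, and RPLP2 (-0.82). The most positive were those of RPL36A (0.87, -0.043 to 1.79), RPL7A (0.79), RPL34 (0.53) and RPS21 (0.52), of which RPL7A was read from another chromosome and RPS21 had a gene value below background. The median was 0.023 over the 29 genes of the 40S and -0.084 over the 43 of the 60S subunit.

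In shELL the same question gave a median of -0.13, against 0.0015 for all genes, with 51 negative members (70.8%, against 49.8%). The median was -1.51 (all genes -0.68) on the values as deposited and -1.08 (all genes -0.25) after centring. Again 0 of 72 members passed (0.00619% of all genes), and 2 had an unadjusted limma p under 0.05 (2.78%, against 2.47%). These were RPL41, with a log2 difference of -1.09 (adjusted p = 0.9999, limma), and RPS27A, with 1.01 (adjusted p = 0.9999, limma). In both the arrays of the 2 states did not overlap, though RPS27A had only 2 of its 5 probe sets above background. Such separation was found in 6 members upward (8.33%, against 10.4%) and 5 downward (6.94%, against 11.5%). RPL30 (-1.39, -3.23 to 0.45) and RPL37 (-1.17, -3.21 to 0.86) had the most negative differences, both with replicate 1 of shELL with EGF as the lowest array. Leaving out replicate 1 of shELL with EGF gave a median of 0.27, and leaving out replicate 2 gave -0.46.

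Averaged over both lines the EGF difference had a median of -0.089, against 0.045 for all genes. It was -0.75 (all genes -0.36) on the values as deposited, -0.43 (all genes -0.046) after centring and 0.063 without replicate 1 of shELL with EGF. None of 72 members passed (0.00619% of all genes), and 5 had an unadjusted limma p under 0.05 (6.94%, against 3.17%), each with an adjusted p of 0.901. This count was 1 to 4 in the fits that left out 1 of the other 7 arrays (1.31% to 4.25% of all genes), and 24 (24.1% of all genes) without replicate 2 of shELL with EGF. RPL36A, near the exit site of the large subunit, was at 8.61 and 8.11 in shELL with EGF and 8.61 and 8.74 in control with EGF, against 8.21 and 7.17 in unstimulated shELL and 8.08 and 7.52 in unstimulated control, a difference of 0.77 (95% interval 0.12 to 1.42). The states did not overlap in control and did so narrowly in shELL. RPL7A, read from a place on another chromosome, was at 3.10 and 3.003 in shELL with EGF and 2.73 and 3.55 in control with EGF, against 2.84 and 2.35 in unstimulated shELL and 2.01 and 2.68 in unstimulated control (0.62, 95% interval 0.0086 to 1.24). RPL31 was at 4.28 and 5.37 in shELL with EGF and 4.79 and 4.12 in control with EGF, against 5.23 and 5.51 in unstimulated shELL and 5.07 and 5.65 in unstimulated control (-0.72, -1.41 to -0.035). RPL31 was lower with EGF without overlap in control, while in shELL its replicate 2 with EGF lay above replicate 1 without it. RPL13A, also known as the translational silencer of the GAIT complex, was at 8.28 and 9.04 in shELL with EGF and 8.41 and 8.01 in control with EGF, against 8.96 and 9.11 in unstimulated shELL and 8.78 and 9.13 in unstimulated control (-0.56, -1.11 to -0.0049). The remaining gene of the 5 was RPL11 (-1.05, -2.09 to -0.0063), whose values are given above. No member was separated by EGF over all 8 arrays in either direction, against 1.58% of all genes upward and 1.13% downward.

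Between the lines without EGF, most members had lower values in shELL after quantile normalisation, a direction that turned round on both other scales. The median log2 difference, shELL minus control, was -0.14, against 0.028 for all genes. The median was 0.67 (all genes 0.49) on the values as deposited and 0.35 (all genes 0.18) after centring each array on its median. In the quantile-normalised values 56 members were negative (77.8%, against 46.3% of all genes). No member of 72 passed, and 0% of all genes did. At an unadjusted limma p under 0.05 there were 0 members, against 1.28% of all genes. The shELL arrays lay below the control arrays without overlap in 19 members (26.4%, against 13.4%) and above them in 5 (6.94%, against 15%). The largest negative differences were in RPLP2 (-0.75, 95% interval -2.36 to 0.85), RPLP0 (-0.73, -1.83 to 0.36) and RPL19 (-0.71), which bridges the subunits. RPL24, another bridge protein, had the largest positive one, at 3.15 and 3.70 in unstimulated shELL against 2.78 and 3.05 in unstimulated control (0.51, -0.26 to 1.28). It was followed by RPL11 (0.49), RPS21 (0.45) and RPL29 (0.40). Both subunits had similar medians, -0.14 for the 40S and -0.15 for the 60S. The control arrays of this comparison are those that served as the baseline for EGF in control. The median was -0.0068 without replicate 1 of unstimulated shELL and -0.28 without its replicate 2.

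Between the lines with EGF, the median over the members was -0.20, against -0.039 for all genes, and 54 members were negative (75%, against 54.5%). The median was -0.91 (all genes -0.17) on the values as deposited and -0.99 (all genes -0.25) after centring. No member passed (0% of all genes), and 1 had an unadjusted limma p under 0.05 (1.39%, against 3.17%). It was RPL41, whose arrays are given above, with a difference of -1.20 (SE 0.45, adjusted p = 0.9998, limma). Arrays were separated downward in 8 members (11.1%, against 14.5%) and upward in 3 (4.17%, against 9.62%). RPL26 (-1.05, -3.23 to 1.12) and RPL30 (-0.98, -2.83 to 0.86) were also among the most negative. RPS27A (0.77), RPL13A (0.45), RPL11 (0.44) and RPL24 (0.44) were the most positive. The sign of this median turned with 1 array. Left out in turn, replicate 1 of shELL with EGF gave a median of 0.14 and replicate 2 gave -0.54. In the fit without replicate 2, which rests on replicate 1 alone for that group and takes its spread from the other groups, 24 of 72 members had an unadjusted limma p under 0.05, as did 20.6% of all genes, and 0 passed after adjustment.

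The single probe sets were also compared without any gene summary, beside all 119624 probe sets with 1 symbol above the same background. Of the 563 of the members, 372 (66.1%, against 53.8% of all) were lower in shELL with EGF than in control with EGF, with a median difference of -0.28 (all probe sets -0.081). Without replicate 1 of shELL with EGF 221 (39.3%, against 51.2%) were lower and the median was 0.18 (all -0.034). Without EGF, 375 (66.6%, against 51.2%) were lower in shELL. For EGF in shELL 344 (61.1%, against 52.6%) were lower with EGF, and 165 (29.3%, against 49.9%) without that array. For EGF in control 305 (54.2%, against 49%) were lower. Probe sets on the gene's own chromosome and those elsewhere, compared as medians within an array, also set replicate 1 of shELL with EGF apart. There those on the own chromosome lay 0.17 below those elsewhere, and on the other 7 arrays they lay 0.23 to 0.76 above.

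Averaged over both states, shELL minus control had a median of -0.20, against -0.0026 for all genes, and 56 members were negative (77.8%, against 50.4%). It was -0.12 (all genes 0.15) on the values as deposited and -0.31 (all genes -0.045) after centring. No member of 72 passed (0% of all genes), and 0 had an unadjusted limma p under 0.05, against 2.64% of all genes. Of the 60S genes 35 of 43 were negative (median -0.21) and of the 40S genes 21 of 29 (median -0.14), a difference between subunits that was not tested. Among the most negative were RPL19 (-0.79, 95% interval -1.85 to 0.27), RPL37 (-0.63) and RPL26 (-0.62). RPL24 (0.47, -0.073 to 1.02), RPL11 (0.47), RPS21 (0.38) and RPS27A (0.29) were the most positive. In 1 member all 4 shELL arrays lay below all 4 control arrays (1.39%, against 1.47% of all genes), and in 0 above them (1.11% of all genes). That member, named after its values were seen, was RPL28, at 5.52 and 6.42 in shELL with EGF and 5.72 and 6.46 in unstimulated shELL, against 6.67 and 6.53 in control with EGF and 6.72 and 6.58 in unstimulated control. The sign of RPL24 was positive in all 21 other settings in each of the 3 line comparisons, at 0.32 to 0.77 for the average. These settings refit the same arrays for a gene picked by its difference, so they are no separate support. Only 4 of the 7 probe sets of RPL24 lay above background. Leaving out replicate 1 of shELL with EGF gave a median over the members of 0.036, and leaving out its replicate 2 gave -0.33. Either fit rests on 1 array for shELL with EGF and takes its spread from the other groups.

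**Figure D5:**
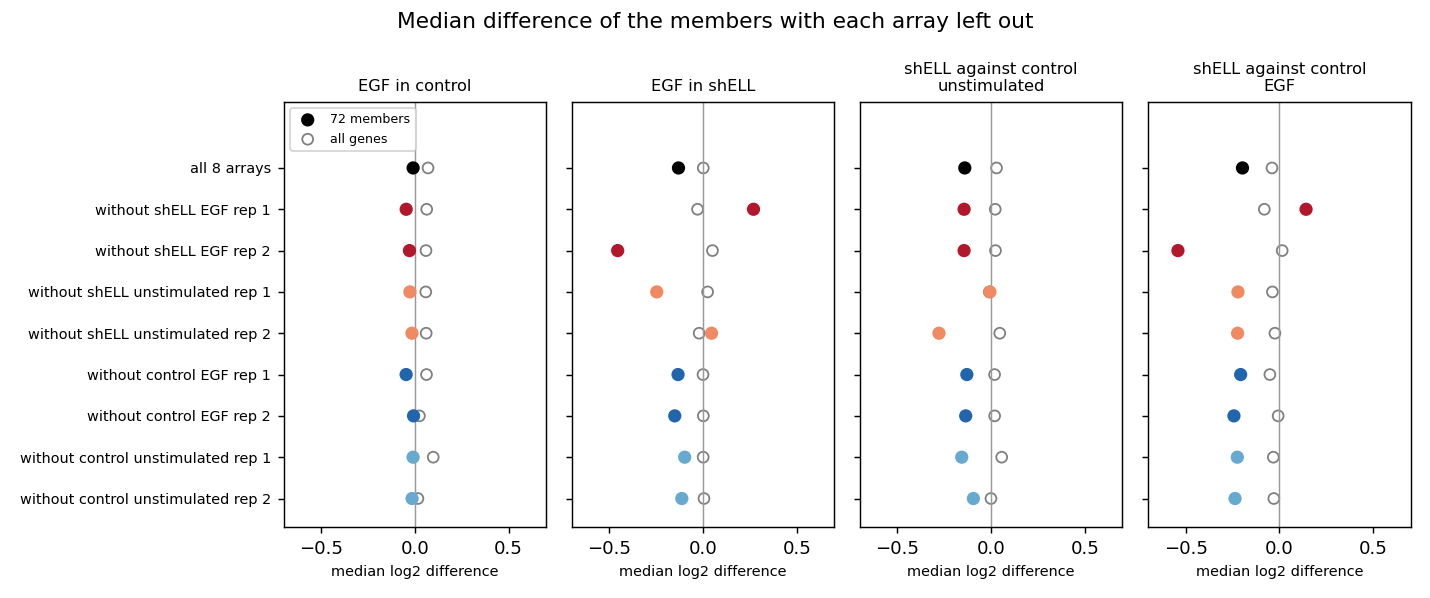
Median log2 difference (horizontal axis) over the ribosomal protein genes (filled) and over all genes (open), in 4 comparisons with all 8 arrays and with each array left out in turn (rows). In the 2 comparisons that use shELL with EGF the filled point crosses 0 when replicate 1 of that group is left out (0.27 and 0.14). Without replicate 2 it moves to -0.46 and -0.54. Values as deposited are not drawn, and on them the unstimulated line difference is positive (0.67, all genes 0.49).

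The interaction, the EGF difference in shELL minus that in control, asked whether the EGF difference of these mRNAs was unequal in the 2 lines. Its median was -0.069, against -0.066 for all genes, and 42 members were negative (58.3%, against 56%). This depended on the processing: the median was -1.45 (all genes -0.66) on the values as deposited, -1.20 (all genes -0.43) after centring and 0.086 (all genes -0.018) with the mean of a gene's probe sets. No member of 72 passed (0% of all genes), and 1 had an unadjusted limma p under 0.05 (1.39%, against 1.73%), again RPL41, with -1.51 (95% interval -2.95 to -0.078, adjusted p = 0.99999, limma). RPL41 differed by -1.09 with EGF in shELL and by 0.43 in control. Its interaction was negative in all 20 other settings that gave it a value (-2.66 to -0.77), which refit the same arrays and are no separate support. RPL23 (-0.92), RPS29 (-0.90) and RPS15A (-0.89) followed. RPS27A (0.96), RPLP2 (0.78) and RPLP0 (0.53) were the most positive. Leaving out replicate 1 of shELL with EGF turned the median to 0.32, and leaving out replicate 2 gave -0.42.

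Other measures also differed between the arrays. The 18 measured mRNAs of other genes with a TOP tract, such as elongation factors and NPM1, had a median of 5.47 in replicate 1 of shELL with EGF and 6.002 to 6.88 in the other arrays. GAPDH, a glycolytic enzyme, was at 6.61 and 8.72 in shELL with EGF, 6.64 and 8.23 in unstimulated shELL, 7.48 and 6.85 in control with EGF and 8.03 and 9.10 in unstimulated control. In 44 members the probe sets nearest the 3' end minus those nearest the 5' end had a median of -1.39 and -0.88 in shELL with EGF, -1.49 and -0.26 in unstimulated shELL, -1.45 and -1.65 in control with EGF and -1.05 and -0.43 in unstimulated control. The 4 arrays of lower GAPDH were also those of more negative 3' minus 5' values. Among these 4, the members had medians of 6.70 and 6.50 for control with EGF. For the first shELL replicates the medians were 5.65 (EGF) and 6.18 (unstimulated). Whether these measures are linked was not tested. Marker lists of other cell types had their highest median in replicate 1 of shELL with EGF, at 2.55 for fibroblast, 2.83 for blood, 3.02 for keratinocyte and 1.95 for endothelial genes, against 1.54 to 2.01, 1.63 to 2.37, 2.14 to 2.73 and 1.37 to 1.91 in the other 7 arrays. Most of these markers lay below background, and the median of all genes was also highest in that array (2.80). The median of the HEK293 markers was 2.94 there and 2.74 to 3.42 in the others. The part of these measures in the differences was not tested.

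Genes of related function were counted in the same fit, and 0 of them passed in any of the 7 comparisons. The 72 mitochondrial ribosomal protein genes measured, which serve a separate ribosome, had a median of -0.079 for shELL minus control averaged over both states (43 negative) and of 0.011 for EGF averaged over both lines, and their array medians stayed within 3.47 to 3.83, with the lowest in replicate 1 of shELL with EGF. Between the lines with EGF their median was -0.15 with 52 of 72 negative, beside -0.20 and 54 of 72 for the cytosolic ones. MRPS18B was at 3.45 and 3.98 in shELL with EGF and 3.13 and 3.97 in unstimulated shELL, against 4.41 and 5.05 in control with EGF and 4.53 and 4.40 in unstimulated control, a line difference of -0.97 with no overlap between the lines, not passing in limma. MRPS17 differed by 1.06 with EGF averaged over both lines, and did not pass either. The paralogs, which encode alternative versions of a ribosomal protein and of which 6 of 8 were measured, had a median of -0.45 between the lines and -0.30 with EGF. Only 4 of the 6 lay above background. Taken by state, the line difference had a median of -0.092 in unstimulated cells and -0.44 in cells with EGF. In shELL with EGF the replicates of RPS27L lay far apart, at 1.23 and 4.50. FAU, which encodes a ribosomal protein fused to a ubiquitin-like protein, and GNB2L1, the scaffold RACK1, differed by 0.41 and -0.30 between the lines. They belong to a list of 3 measured genes, of which 2 were negative, with a median of -0.30 and a lowest difference of -0.36.

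The other TOP mRNAs had a median of -0.15 between the lines (14 of 18 negative, against 50.4% of all genes) and -0.12 with EGF (16 of 18 negative, against 44.1%). Regulators of TOP mRNAs, 16 genes of the mTOR and LARP1 route and of other RNA-binding proteins, had medians of -0.11 and -0.19. LARP1 itself was at 3.71 and 4.86 in shELL with EGF, 4.64 and 4.88 in unstimulated shELL, 4.48 and 4.37 in control with EGF and 4.56 and 5.13 in unstimulated control. EIF4EBP1, the translation repressor that mTOR inactivates, differed by 0.53 with EGF and did not pass. The 34 measured ribosome assembly factors had medians of -0.059 between the lines and 0.013 with EGF. The 14 genes of RNA polymerase I, which makes the large rRNAs, and of its factors had -0.055 and -0.14. These lists share arrays with the members, and differences between lists were not tested.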

How the data were processed

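Total RNA of 8 samples was read on Affymetrix Human Exon arrays. The deposited log2 values cover 287329 probe sets on every array and were made by the authors with Affymetrix Expression Console and RMA, per the submitters' processing notes, in versions that the sources used here do not state. A deposited file of group means in log2, within 5e-05 of the means of the arrays, supplied symbols and positions, and probe sets were joined by their ID. Because array medians and 75th percentiles differed, the arrays were quantile normalised. Probe sets with 1 symbol (35 had several and 6645 none) were kept when their mean reached the 25th percentile, 1.16. Median polish of up to 10 iterations then gave a value to the 16145 genes with at least 3 of them (209106 probe sets). The model in limma 3.58.1 (R 4.3.3) had a mean for each of the 4 groups, fitted to all 8 arrays (residual degrees of freedom 4, two-sided tests), and p-values were adjusted after Benjamini and Hochberg over all genes, separately for each of the 7 comparisons, at 0.05. Precision is limited by having 2 arrays in a group. Background levels came from olfactory receptor genes (42 genes, 1225 probe sets).

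The members and the lists of related genes were chosen with earlier results of these data known, so lists are described by counts and medians with no test of their own. Named members were a fixed set of known roles, the 5 of highest and lowest level and of most and least spread, and the 4 highest and 4 lowest differences of each comparison, with up to 4 genes of each other list by size of difference. LARP1 was named beside them for its role. A few genes are not reported here by name, and counts and medians over the members include them. The labels name the second biological replicate of each group, and the first was numbered 1. Deviations of same-numbered replicates from their group means correlated at 0.37 to 0.51 among 3 of the groups and at -0.31 to -0.16 between these and control with EGF, so the numbers were not taken to pair the samples. Gene chromosomes and starts came from RefSeq, with all 76 symbols matched. The procedure was tested on simulated data. Alternatives covered scaling, filter, summary, variance model, array weights, arrays in the fit, a replicate block and each array left out, 17 in all, and 4 were added after seeing the data. Data were handled with data.table (version 1.17.8) and pandas 2.3.3 under Python 3.11.15, and figures drawn with matplotlib 3.10.9.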

Additional observations from a re-analysis of the deposited data

How the results depend on the processing

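No member passed at an adjusted p of 0.05 in any of the 7 comparisons under any of the 21 other settings, and the lowest adjusted limma p of the 44 named members over them was 0.0917. The median over the members depended on the scaling and on the arrays. On the values as deposited it was -1.51 for EGF in shELL, -0.75 for EGF averaged over lines, 0.67 for shELL against control unstimulated, -0.91 for shELL against control with EGF and -1.45 for the interaction. The median of all genes was then -0.68, -0.36, 0.49, -0.17 and -0.66 in the same 5 comparisons, a shift of -0.69, -0.41, 0.46, -0.13 and -0.60 from its value after quantile normalisation. With array median centring the members were at -1.08 for EGF in shELL, 0.35 for the unstimulated line difference, -0.99 for the line difference with EGF and -1.20 for the interaction (all genes -0.25, 0.18, -0.25 and -0.43). Leaving out each array in turn, the median ran over -0.047 to -0.0070 for EGF in control, -0.46 to 0.27 for EGF in shELL, -0.22 to 0.063 for EGF averaged over lines, -0.28 to -0.0068 for the unstimulated line difference, -0.54 to 0.14 for the line difference with EGF, -0.33 to 0.036 for the line average and -0.42 to 0.32 for the interaction. The unstimulated line difference was -0.0068 without replicate 1 of unstimulated shELL and -0.28 without replicate 2, and EGF in shELL was 0.045 without replicate 2 of unstimulated shELL. The cause was not tested.

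With the replicate block the medians were as without it (-0.20 for the line average) and the members at an unadjusted p under 0.05 numbered 1, 2 and 6 for EGF in control, in shELL and averaged, 0, 2 and 2 for the line differences unstimulated, with EGF and averaged, and 1 for the interaction, of 72 each, against 1.59% to 4.1% of all genes. With the numbers exchanged in control with EGF, a setting chosen after seeing the data, these counts were 4, 5, 10, 1, 2, 3 and 1, against 3.38% to 8.89% of all genes, with 0 passing. Probe sets on the gene's own chromosome alone (67 members) gave medians of -0.070, -0.15, -0.087, -0.13, -0.18, -0.21 and -0.034 in that order, and the 5 arrays of highest agreement gave 0.016, 0.056, 0.048, 0.026, 0.063, 0.033 and 0.12, with 0 passing in each. In 3 groups of that last fit a lone array was assumed to vary like the others. The gene values of RPL37A, RPL22, RPSA and RPS21 are at or under background, though some of their probe sets are above it.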
